A study of Mus musculus with 5 samples.

Results

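RAB GTPases are the largest branch of the RAS-like small GTPases and act as switches that give each membrane of the cell its identity. The genes described here are the 59 rows, of 52459 in the deposited expression table, whose symbol is Rab followed by a number and, where there is one, a paralog letter. All 59 are annotated as protein-coding. The rule for membership uses the name and no measured value, and the family itself was taken up with earlier results of these data known. Values come from mouse pancreatic cancer cells of the HY15549 line, on a C57BL/6 background, all of which carried the GFP-LC3-RFP reporter of autophagy flux. The cells were grown in Matrigel as organoids, dissociated, and sorted by how their green signal compared with the red. There were 2 libraries of the autophagy-high population (AThi) and 3 of the autophagy-low population (ATlo). No group without the reporter, and no line other than this one, was part of the comparison, and the labels name no added treatment. The labels call the libraries biological replicates without naming separate cultures, and the p-values therefore cover the spread among these 5 libraries.

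A RAB cycles between a GTP-bound form on a membrane and a GDP-bound form in the cytosol. Guanine nucleotide exchange factors (GEFs) switch it on, GTPase-activating proteins of the TBC family switch it off, and a lipid tail added by a prenyltransferase lets it sit in the membrane. In the active form each RAB recruits its own effectors, such as tethers and motor proteins, and so directs vesicles between the endoplasmic reticulum (ER), the Golgi, the cell surface, endosomes and the lysosome. Several RABs also serve in autophagy, where membranes from the ER, the Golgi and recycling endosomes feed the forming autophagosome and late endosomal RABs guide its fusion with the lysosome. Here the RABs were divided by the compartment each is best known for into ER-Golgi (12 genes), exocytic (12), early endosomal (7), recycling endosomal (9), late endosomal and lysosomal (13) and other (6) genes. The ER-Golgi and exocytic classes together are the secretory RABs. Many RABs work in more than 1 place, so these classes are a simplification.

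The values are FPKM (fragments scaled to transcript length and library size), which allow levels of different genes to be compared, and the low values imply a depth of 27.58 to 44.96 M reads per library. At that depth 3 reads on a transcript of 1 kilobase correspond to 0.067 to 0.109 FPKM, for counting error only. Epithelial keratin genes and Cdh1 were high in all 5 libraries, with a summed level of the 6 epithelial markers of 3477 and 4122 FPKM in AThi and 3701 to 4366 FPKM in ATlo. Epcam, at 1.51 to 3.57 FPKM, and Cldn4, at 0 to 0.15 FPKM, were low epithelial markers, and the 6 acinar markers summed to 10.8 to 11.8 FPKM in AThi and 11.9 to 13.2 FPKM in ATlo, nearly all of it Cela1 (10.2 to 12.9 FPKM). The acinar genes Cpa1, Amy2b and Pnlip were listed at 0, and Ctrb1 was at 0.62 and 0.58 FPKM in AThi and 0 to 0.03 FPKM in ATlo. The summed endothelial, fibroblast and neuroendocrine markers were at most 0.31 FPKM in each library. The summed immune markers were 8.78 and 14.8 FPKM in AThi and 4.37 to 4.63 FPKM in ATlo. Cd68, a lysosomal membrane protein gene that is also a macrophage marker, was the single immune marker of 6 with a mean of at least 1 FPKM. Other measures separated the same groups. The proliferation gene Mki67 was at 1.85 and 2.03 FPKM in AThi and at 20.9 to 29.1 FPKM in ATlo, the immediate-early gene Btg2 was at 336 and 517 FPKM in AThi and at 45.6 to 105 FPKM in ATlo, and mitochondrially encoded genes made up 10.0 and 7.51% of the summed FPKM in AThi and 5.53 to 5.98% in ATlo. Their part in the differences below was not tested. In RNA of sorted populations, fewer cells that use a gene and less of its RNA per cell cannot be told apart.

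Of the 59 RABs, 42 averaged 1 FPKM or more and were tested. In AThi, 8 were higher (Rab20, Rab17, Rab2b, Rab6b, Rab32, Rab4a, Rab34 and Rab27a) and 7 were lower (Rab3b, Rab31, Rab1b, Rab35, Rab5c, Rab8a and Rab6a), while 27 did not pass an adjusted p of 0.05. The largest rise, in Rab20, was 0.83 on the log2 scale and the largest fall, in Rab3b, was -0.73. Rab3b entered the test through ATlo, since its AThi values were under 1 FPKM, and the next largest fall, in Rab31, was -0.44. The 15 calls make 35.7% of the tested RABs, where 51.6% of all 11397 tested genes passed, 22.2% higher and 29.4% lower. The median absolute log2 fold change was 0.15 over the RABs and 0.28 over all tested genes, and the signed medians were -0.03 for both. The library values of the groups did not overlap for 25 of the 42 RABs, 14 with AThi above and 11 with AThi below. Of all tested genes 70.3% did not overlap, 31.9% with AThi above and 38.4% with AThi below. When the values were rescaled to a fixed sum (TPM), 48 RABs passed the filter and 11 were higher and 6 lower. Without AThi replicate 1 the rises numbered 4, and without AThi replicate 2 or ATlo replicate 2 the falls numbered 4. Over all genes, the rises were 3138 and the falls 3186 after the TPM rescaling, against 2529 and 3355 before it. The rises over all genes were 1841 without AThi replicate 1, and the falls were 2613 without AThi replicate 2 and 2731 without ATlo replicate 2. Fold changes are log2(FPKM + 0.5), AThi minus ATlo, and the adjusted p-values are from limma with Benjamini-Hochberg adjustment over all tested genes.

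Promoter windows of RefSeq genes (GRCm38.p6, 250 bases before to 50 after the annotated start) were matched by symbol for 48 of the 59 RABs, in 60 windows. The E-box CACGTG, whose extended form TCACGTGA is the centre of the CLEAR element of lysosomal and autophagy genes and whose letters ACGTG are the core of the hypoxia response element, was found in 6 RABs. The stretches that hold it are shown because they set the RABs with this element beside their measured change. The 6 letters in capitals are the E-box, and each is written 5′ to 3′ on the strand of its gene:
Rab20: cggccgggcaccCACGTGgtcgcagggctg
Rab27a: cttgCACGTGctcctccgtctg
Rab21: gcccaccgcggtCACGTGacgaggggtgtg
Rab23: cttcagtgctacCACGTGagtctcaggtgg
Rab24: cggcgcccgcgtCACGTGaccgggcgtccc
Rab5a (first): aattggagaagaCACGTGacgcaaccccac
Rab5a (second): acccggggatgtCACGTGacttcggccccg
The Rab20 stretch is at chr8:11478669-11478698 on the minus strand, with the E-box 46 bases before the RefSeq start, and the Rab27a stretch is at chr9:73063898-73063919 on the plus strand, 246 bases before the second of its RefSeq starts. The Rab20 start in GENCODE M21 is 11478710, so on that model the E-box lies inside the first exon. The Rab23 stretch is at chr1:33719666-33719695 and the first Rab5a stretch at chr17:53478987-53479016, both on the plus strand. Rab20 and Rab27a rose (0.83 and 0.24), while Rab21, Rab23, Rab24 and Rab5a, at -0.18, -0.13, -0.02 and -0.04, did not pass. The extended form TCACGTGA, searched on both strands and overlapping the E-box, was in the windows of Rab21 (chr10:115315604-115315633, minus strand), Rab24 (chr13:55321961-55321990, minus strand) and Rab5a (chr17:53479127-53479156, plus strand, its second E-box), and in none of the RABs that passed. The shares of windows with a match were 10.0% for the E-box in RABs against 7.15% of all 32851 windows, 5% against 0.97% for the extended form, and 21.7% against 19.6% for ACGTG. The GC box GGGCGG was in 68.3% of RAB windows and 35.7% of all windows, in 5 of the 7 matched RABs that rose and 5 of the 7 that fell. A match describes the letters and does not show binding.

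**Figure D1:**
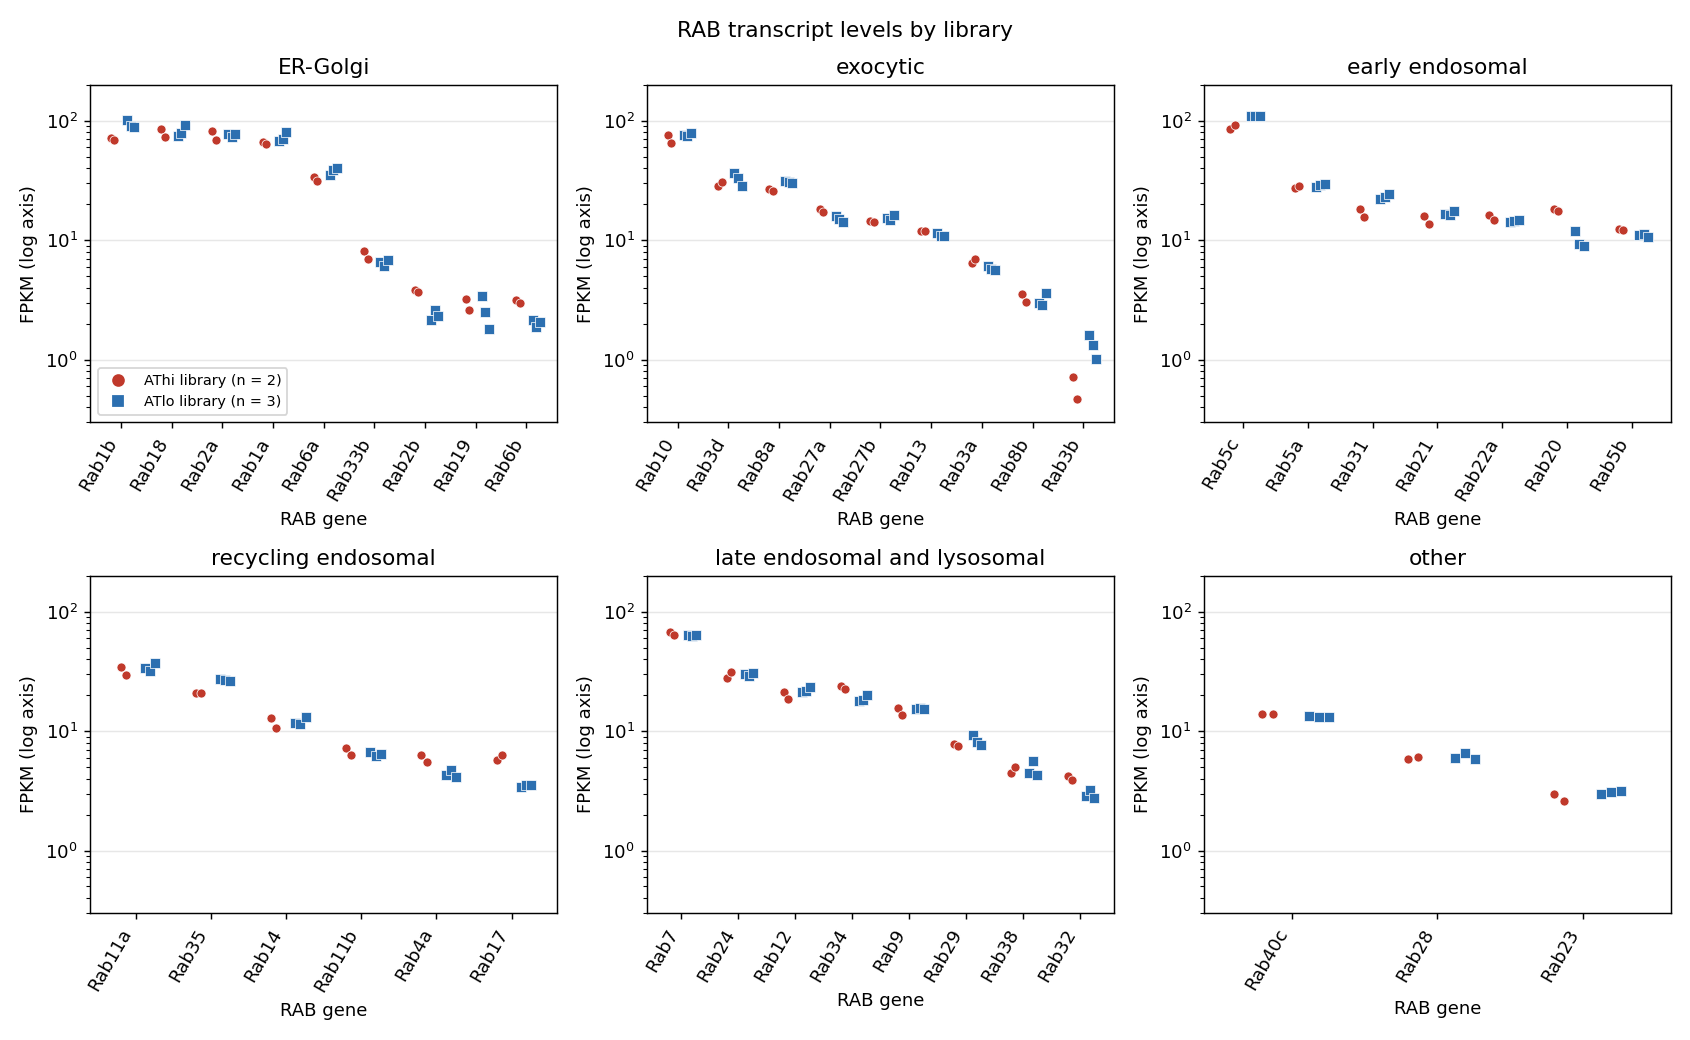
FPKM (log axis) of the 42 tested RAB genes in every library, by class, with the genes of a class ordered by mean level; circles are the 2 AThi libraries and squares the 3 ATlo libraries. Levels span from about 1 FPKM (Rab3b) to 102 FPKM (Rab5c), and for most genes the 5 libraries lie close together.

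RAB transcripts were unequal in level. Rab5c, at a mean of 102 FPKM over the 5 libraries, was the most abundant, followed by Rab1b at 84.4, Rab18 at 81.0, Rab2a at 76.0, Rab10 at 74.3, Rab1a at 69.9 and Rab7 at 64.3 FPKM. Each neighbour in this order overlapped the next in its library values, so the order is only that of the pooled means, although Rab5c was the highest RAB within every library. In the AThi libraries alone, the means of Rab18 (79.7 FPKM), Rab2a (75.95 FPKM) and Rab10 (70.9 FPKM) lay above that of Rab1b (70.7 FPKM). The next gene, Rab6a, was at 36.0 FPKM and did not overlap them. These 8 genes held 55.1 ± 0.58% (SD, n = 2) of the summed RAB FPKM in AThi and 57.7 ± 0.63% (SD, n = 3) in ATlo, an exact two-sided permutation p of 0.2, the smallest that 2 libraries against 3 can give. The sum over all 59 RABs was 998 ± 40.8 FPKM (SD, n = 2) for the AThi libraries. For ATlo it was 1061 ± 18.1 FPKM (SD, n = 3), and the exact permutation p was again 0.2. As a share of that sum, ER-Golgi RABs held 34.4% in AThi and 35.5% in ATlo, early endosomal RABs 19.5 and 20.2%, exocytic RABs 18.2 and 18.2%, and recycling RABs 8.41 and 8.33%. The late endosomal and lysosomal share was 17.1 ± 0.30% (SD, n = 2) in AThi and 15.7 ± 0.12% (SD, n = 3) in ATlo, and the library values did not overlap. Its exact permutation p was 0.2, and no share of the 9 measures compared in this way had a Benjamini-Hochberg adjusted p under 0.45.

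**Figure D2:**
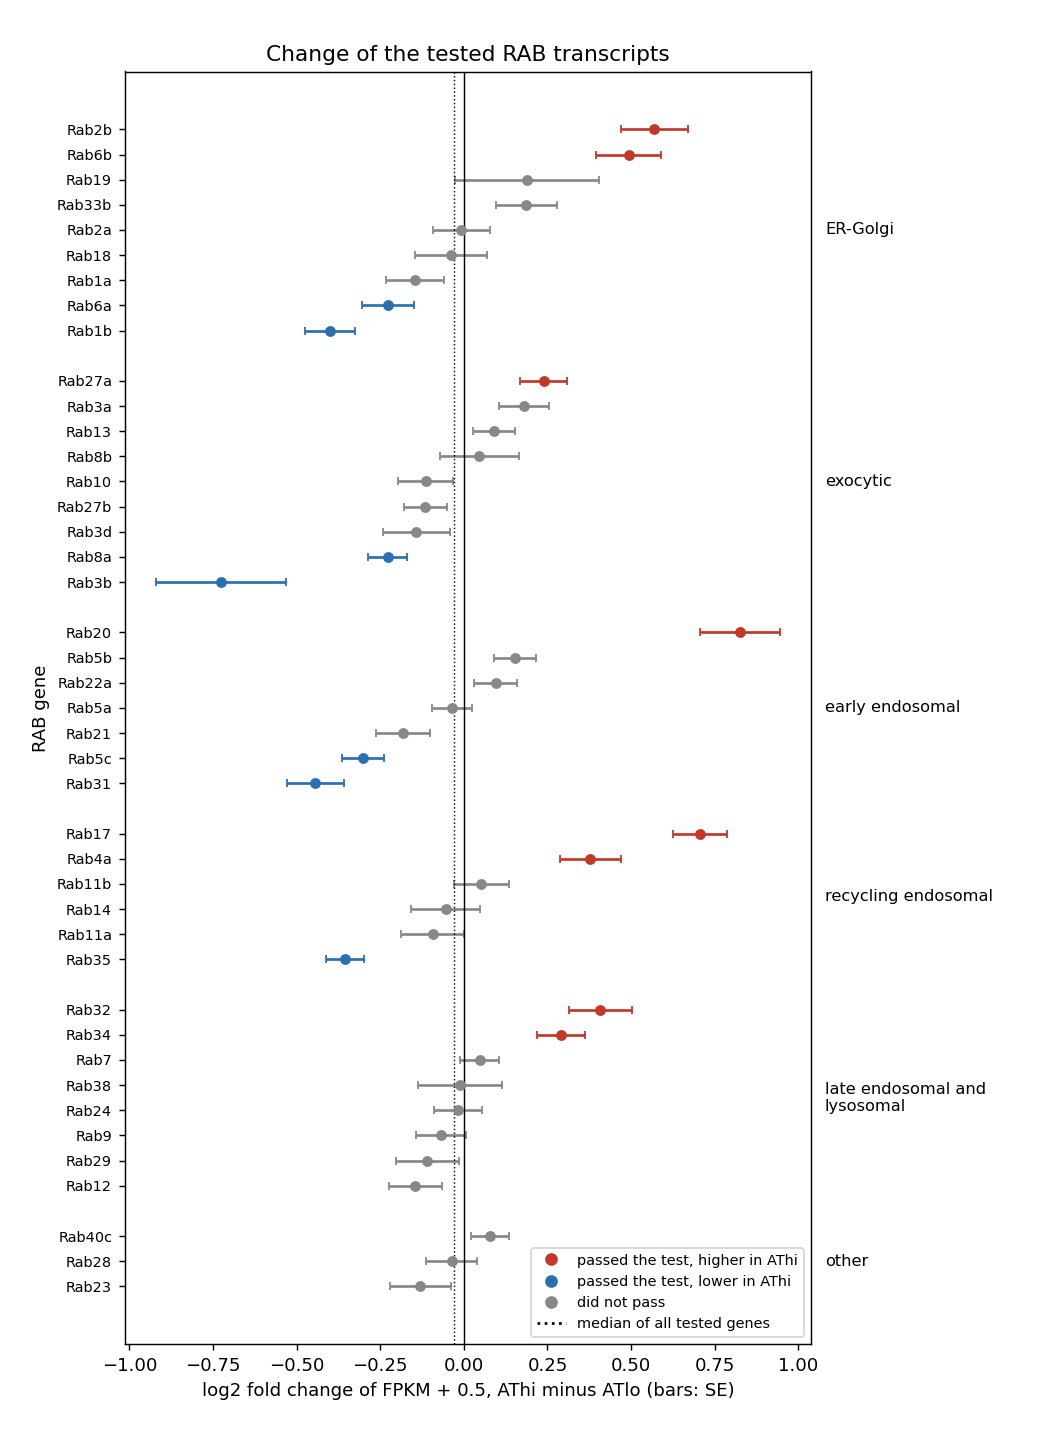
Log2 fold change of FPKM + 0.5 (AThi minus ATlo) of each tested RAB gene with its standard error, by class; red and blue points passed the limma test, grey points did not, and the dotted line is the median of all tested genes, at -0.03. Genes on both sides of 0 passed in every class except the late endosomal and lysosomal class, where both calls were higher, and the other class, where none passed.

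Among the 9 tested ER-Golgi RABs, 2 rose, 2 fell and 5 went uncalled; the class median was -0.01. Rab1b, which controls transport from the ER to the Golgi and takes part in building autophagosomes, had the highest mean of the class over the 5 libraries and in ATlo, and not in AThi. Its level was 71.6 and 69.7 FPKM in AThi and 101, 90.4 and 89.3 FPKM in ATlo replicates 1 to 3, so both AThi libraries lay below every ATlo library. The change was -0.40 ± 0.07 (SE), with an adjusted p of 0.00435. Rab1a, its close paralog, was at 67.0 and 64.1 FPKM in AThi and at 67.5 to 80.3 FPKM in ATlo. Its change of -0.15 ± 0.09 (SE) did not pass, with an adjusted p of 0.194. Rab2b, a Golgi RAB with a role in the clearance of autophagosomes, was at 3.81 and 3.72 FPKM in AThi and at 2.17, 2.63 and 2.34 FPKM in ATlo. It rose by 0.57 ± 0.10 (SE), with an adjusted p of 0.00337. The far more abundant Rab2a, at 82.4 and 69.5 FPKM in AThi and 74.0 to 77.3 FPKM in ATlo, had overlapping groups and a change of -0.01 ± 0.08 (SE). Rab6a, which acts in traffic within and out of the Golgi, was at 33.8 and 31.5 FPKM in AThi and at 35.5, 38.8 and 40.7 FPKM in ATlo. It changed by -0.23 ± 0.08 (SE), with an adjusted p of 0.0435. Rab6b, a paralog best known from neurons, went the other way, at 3.14 and 3.00 FPKM in AThi against 2.15, 1.88 and 2.09 FPKM in ATlo, a rise of 0.49 ± 0.10 (SE) with an adjusted p of 0.00558. The call of Rab6a is the least secure of these, since leaving out any library but ATlo replicate 1 ended it (adjusted p 0.0692 to 0.200), as did both other scalings, no filter on low values, moderation without a trend (adjusted p 0.0638 to 0.0953) and the replicate number as a block (adjusted p 0.109). Rab18 of the ER and lipid droplets, Rab33b, a Golgi RAB that binds the autophagy protein ATG16L1, and Rab19 had changes of -0.04, 0.19 and 0.19 and did not pass.

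Of the 9 tested exocytic RABs, 1 rose, 2 fell and 6 went uncalled; the class median was -0.11. Rab10, which carries cargo from the Golgi and endosomes to the cell surface, is the most abundant of them. It was at 76.4 and 65.4 FPKM in AThi and at 76.6, 74.1 and 79.0 FPKM in ATlo, and its change of -0.11 ± 0.08 (SE) did not pass, with an adjusted p of 0.281. Rab3b, a RAB of regulated secretion, was at 0.72 and 0.47 FPKM in AThi and at 1.62, 1.32 and 1.01 FPKM in ATlo. Its change was -0.73 ± 0.19 (SE), with an adjusted p of 0.0184. Its mean of 1.03 FPKM lay just above the filter and was carried by ATlo. Without AThi replicate 2 the adjusted p was 0.113, with no filter on low values it was 0.0629, and without ATlo replicate 1 or 2 the gene was below the filter. Rab3d, the main RAB3 paralog here and a marker of exocrine secretory granules, was at 28.6 and 30.5 FPKM in AThi and at 28.8 to 36.3 FPKM in ATlo, and its groups overlapped. Rab8a, a partner of Rab10 in transport to the cell surface, was at 26.8 and 25.9 FPKM in AThi and at 31.6, 30.9 and 30.2 FPKM in ATlo. It changed by -0.23 ± 0.06 (SE), with an adjusted p of 0.0156, and this call was lost without AThi replicate 2 (adjusted p 0.0773) or ATlo replicate 2 (adjusted p 0.0623). Rab27a, which docks lysosome-related organelles and the endosomes that release exosomes, was at 18.3 and 17.3 FPKM in AThi and at 15.9, 15.03 and 14.2 FPKM in ATlo. It rose by 0.24 ± 0.07 (SE), with an adjusted p of 0.0267, and leaving out any library but ATlo replicate 1 ended the call, at adjusted p-values of 0.0573 to 0.130. With the replicate number as a block the adjusted p was 0.0655. Rab27b lay at 14.4 and 14.2 FPKM in AThi and 14.9 to 16.3 FPKM in ATlo, with a change of -0.11 that did not pass. Rab3a, Rab13 and Rab8b had changes of 0.18, 0.09 and 0.05 and did not pass.

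All 7 early endosomal RABs were tested, and 1 rose, 2 fell and 4 went uncalled; the class median was -0.04. Rab20, an endosomal RAB that takes part in phagosome maturation and is known as a hypoxia-induced gene, had the largest rise of all RABs. It was at 18.2 and 17.8 FPKM in AThi and at 11.9, 9.29 and 8.89 FPKM in ATlo, with every AThi library above every ATlo library. The log2 fold change was 0.83 ± 0.12 (SE), with an adjusted p of 0.00153. The hypoxia-response genes Vegfa and Bnip3 separated the same groups, with log2 fold changes of 1.22 and 1.14, and their part in the rise of Rab20 was not tested. Rab5c, with Rab5a and Rab5b a master regulator of early endosome fusion, was at 86.1 and 92.3 FPKM in AThi and at 109, 111 and 110 FPKM in ATlo. Its change of -0.30 ± 0.06 (SE) passed, with an adjusted p of 0.00703. Rab5a was at 27.6 and 28.5 FPKM in AThi and 27.8 to 29.4 FPKM in ATlo, a change of -0.04 ± 0.06 (SE). Rab5b was at 12.4 and 12.3 FPKM in AThi and 10.6 to 11.4 FPKM in ATlo, a change of 0.15 ± 0.06 (SE) with an adjusted p of 0.0816, which passed under both other scalings (adjusted p 0.0446 and 0.0450). Rab31, which acts between the Golgi and endosomes, was at 18.4 and 15.6 FPKM in AThi and at 22.3, 23.1 and 24.3 FPKM in ATlo. It changed by -0.44 ± 0.08 (SE), with an adjusted p of 0.00464. Rab21, a RAB of integrin traffic, and Rab22a had changes of -0.18 and 0.09. Rab21 passed only without AThi replicate 1, with an adjusted p of 0.0391.

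Of the 9 recycling RABs, 6 were tested, of which 2 rose, 1 fell and 3 did not pass. Rab17, a RAB of epithelial cells that sorts cargo through the recycling endosome, was at 5.68 and 6.34 FPKM in AThi and at 3.39, 3.56 and 3.51 FPKM in ATlo. The rise of 0.71 ± 0.08 (SE) had the lowest adjusted p of the RABs, 0.000584. Rab4a, which returns receptors rapidly to the surface, was at 6.25 and 5.48 FPKM in AThi and at 4.32, 4.72 and 4.14 FPKM in ATlo. It rose by 0.38 ± 0.09 (SE), with an adjusted p of 0.0122, or 0.0819 without AThi replicate 1. Rab35, which acts in recycling at the plasma membrane and in the last step of cell division, was at 20.8 and 20.9 FPKM in AThi and at 27.3, 26.7 and 26.4 FPKM in ATlo. It changed by -0.36 ± 0.06 (SE), with an adjusted p of 0.00219. Rab11a, the main RAB of the slow recycling route and a source of membrane for autophagosomes, is the most abundant of the class and did not pass. It was at 34.3 and 29.7 FPKM in AThi and at 33.5, 31.7 and 37.3 FPKM in ATlo, a change of -0.09 ± 0.09 (SE). Rab11b and Rab14 had changes of 0.05 and -0.05. Rab25, the epithelial member of the Rab11 group, was below the filter, at 0.24 and 0.39 FPKM in AThi and at 0.14 to 0.29 FPKM in ATlo.

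Among the 8 tested late endosomal and lysosomal RABs, 2 rose, 0 fell and 6 went uncalled; the class median was -0.01. Rab7, the RAB that directs late endosomes and autophagosomes to the lysosome, was at 67.1 and 64.1 FPKM in AThi and at 64.2, 62.8 and 63.4 FPKM in ATlo. The groups overlapped, and the change was 0.05 ± 0.06 (SE), with an adjusted p of 0.529. Rab32, which with Rab38 serves lysosome-related organelles, was at 4.19 and 3.90 FPKM in AThi and at 2.85, 3.20 and 2.74 FPKM in ATlo. It rose by 0.41 ± 0.09 (SE), with an adjusted p of 0.0104, or 0.0673 without AThi replicate 1. Rab38 itself was at 4.44 and 4.99 FPKM in AThi and 4.26 to 5.64 FPKM in ATlo, a change of -0.01 ± 0.13 (SE). Rab34, linked to the positioning of lysosomes and to cilia, was at 23.6 and 22.3 FPKM in AThi and at 18.0, 18.2 and 20.0 FPKM in ATlo. It rose by 0.29 ± 0.07 (SE), with an adjusted p of 0.0135. This became 0.0781 without AThi replicate 1 and 0.0537 without ATlo replicate 2. Rab24, which is known to associate with autophagosomes, was at 27.6 and 31.0 FPKM in AThi and at 28.7 to 30.4 FPKM in ATlo, with a change of -0.02 ± 0.07 (SE). Rab9 of the route from late endosomes to the Golgi, Rab29 and Rab12 had changes of -0.07, -0.11 and -0.14 and did not pass. In the remaining class, Rab40c was the most abundant, at 13.8 and 14.0 FPKM in AThi and 13.01 to 13.27 FPKM in ATlo. Its AThi values lay above those of ATlo by a small margin, and the change of 0.08 ± 0.06 (SE) did not pass. Rab23 and Rab28, both linked to cilia, changed by -0.13 and -0.04 and did not pass.

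Set side by side, the secretory classes had 3 rises and 4 falls among 18 tested genes. The 3 endosomal classes had 5 rises and 3 falls among 21, and both medians were -0.02. Among the secretory falls is Rab3b, an exocytic gene that entered the test through ATlo. The endosomal rises were in 1 early, 2 recycling and 2 late endosomal genes. The shares that passed were 44.4% of ER-Golgi, 33.3% of exocytic, 42.9% of early endosomal, 50% of recycling and 25.0% of late endosomal and lysosomal RABs, none above the 51.6% of all tested genes. The difference between the classes was not tested. The class medians depended on single libraries of both groups. Without AThi replicate 1 the ER-Golgi median was -0.13 and the recycling median -0.11, and without AThi replicate 2 they were 0.12 and 0.11. Without ATlo replicate 1, where Rab3b was below the filter, the exocytic median was -0.03, against -0.11 in the main fit. Without ATlo replicate 2 the late endosomal and lysosomal median was 0.04, against -0.01.

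The RAB level and the direction of its change went together as follows. Of the 21 tested RABs with a mean above the median RAB level of 14.98 FPKM, 2 rose and 6 fell, at a median of -0.11. Of the 21 at or below that level, 6 rose and 1 fell, with a median of 0.09. That fall is Rab3b, which entered the test through ATlo. Over all tested genes, RABs included, the medians had the same signs, while the calls at or below that level were nearly even. Of the 3790 tested genes above 14.98 FPKM, 19.8% rose and 40.5% fell, with a median of -0.12. Of the 7607 at or below it, 23.4% rose and 23.9% fell, with a median of 0.02. The level is a mean over 2 AThi and 3 ATlo libraries, so the ATlo values of a gene weigh more in it.

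**Figure D3:**
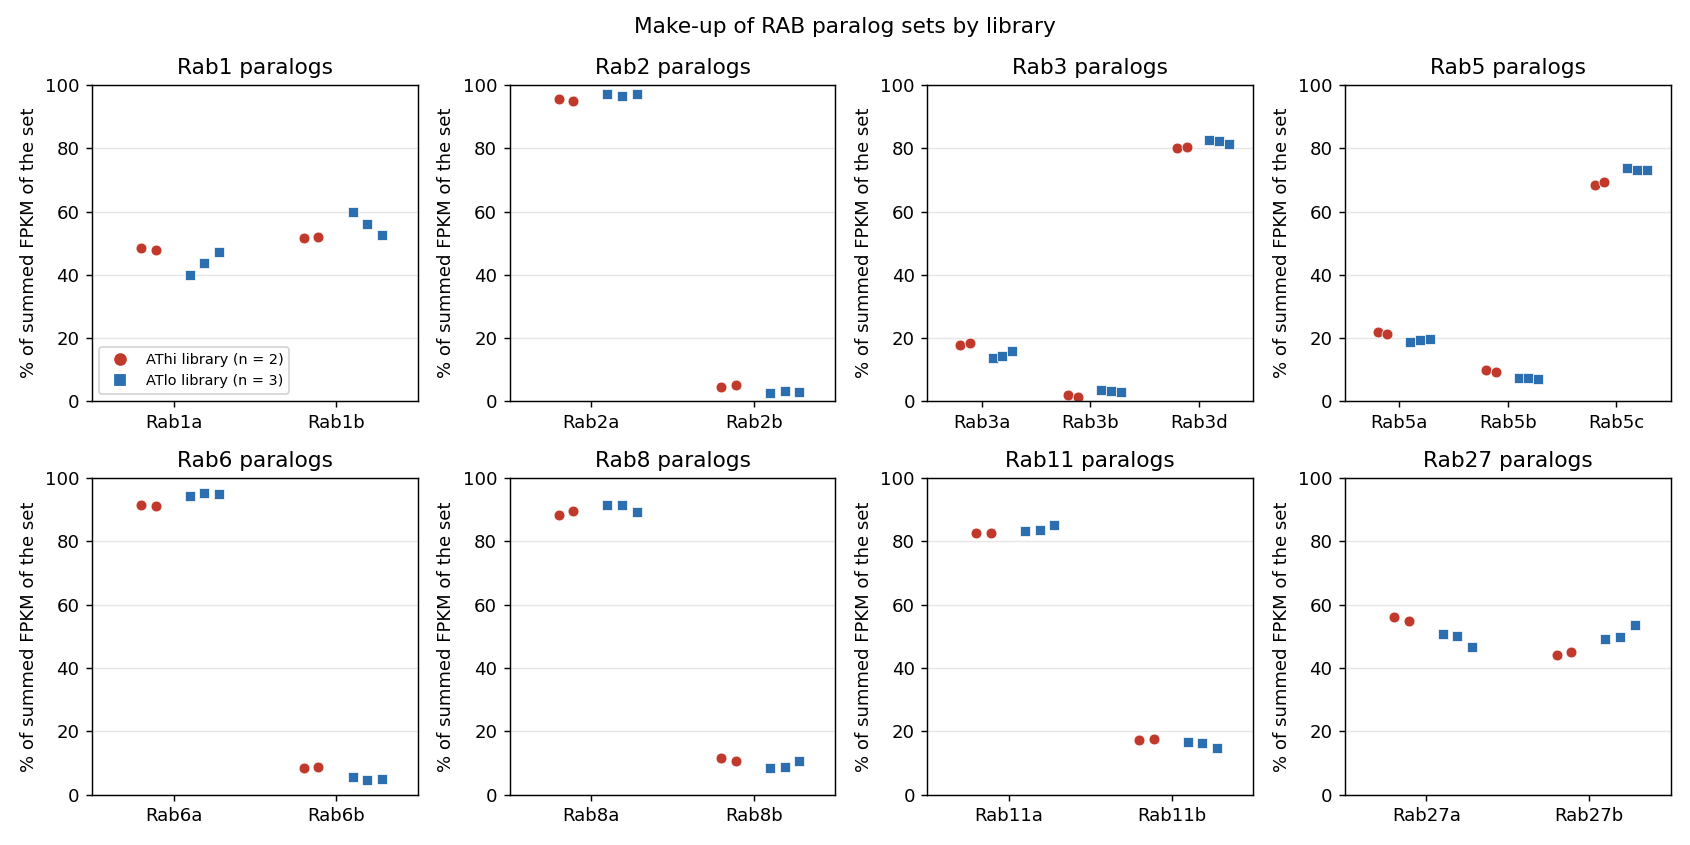
Percent of the summed FPKM of a paralog set held by each tested member, in every library; circles are AThi and squares ATlo. Rab6b, Rab2b, Rab5b and Rab5a hold more of their sets in both AThi libraries than in any ATlo library, and Rab6a, Rab2a and Rab5c less.

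Paralogs of 1 RAB number share a library, so the make-up of a set does not depend on the scaling between libraries. At least 2 tested members were present in 8 sets. Rab6b held 8.50 and 8.70% of the Rab6 FPKM in the AThi libraries and 5.71, 4.62 and 4.89% in ATlo. Rab2b held 4.42 and 5.08% of the Rab2 set in AThi and 2.74, 3.43 and 2.94% in ATlo. In the Rab5 set, Rab5c held 68.3 and 69.3% in AThi and 73.8, 73.2 and 73.3% in ATlo, and the shares of Rab5a and Rab5b did not overlap between the groups either. In these 3 sets the member that dominates the set held less of it in AThi. Rab1b held 51.7 and 52.1% of its set in AThi and 59.9, 56.1 and 52.7% in ATlo, so ATlo replicate 3 lay close to the AThi libraries. Rab27a held 56.0 and 54.9% of the Rab27 set in AThi and 50.7, 50.3 and 46.5% in ATlo. Rab3d held 80.1 and 80.5% of the Rab3 set in AThi and 81.3 to 82.5% in ATlo, Rab3a held more in AThi (17.9 and 18.3% against 13.8 to 15.8%) and Rab3b less (2.02 and 1.24% against 2.85 to 3.68%). Rab11a held 82.8 and 82.5% in AThi and 83.4 to 85.2% in ATlo, while the shares of Rab8a and Rab8b overlapped between the groups. The exact two-sided permutation p was 0.2 for each of the 7 sets without overlap, the smallest this design allows, so none can pass 0.05. Lack of overlap was common in these data, since the FPKM of 70.3% of all tested genes did not overlap. How often shares within other sets of genes do not overlap was not computed. A pseudogene of Rab11b has a row of its own at 0.44 to 0.65 FPKM, and how reads shared by close paralogs or pseudogenes were assigned is not given in the sources used here, which leaves Rab11b, Rab1a and Rab1b uncertain by an unknown amount.

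The other 17 RABs had a mean under 1 FPKM and were not tested. Rab3c, Rab39 and Rab44 were listed at 0 in all 5 libraries, and Rab9b never exceeded the level of 3 reads. Rab36 lay just under the filter, with a mean of 0.99 FPKM. It was at 1.20 and 1.40 FPKM in AThi and at 0.74, 0.80 and 0.82 FPKM in ATlo. Rab40b, which encodes a substrate adaptor of a ubiquitin ligase, was at 0.33 and 0.40 FPKM in AThi and at 0.08, 0.01 and 0.13 FPKM in ATlo, where the value of 0.01 is under the level of 3 reads. In the fit with no filter on low values these 2 were the untested RABs that passed, with adjusted p-values of 0.0483 for Rab36 and 0.0183 for Rab40b. Rab33a, Rab43, Rab30 and Rab42 also had both AThi libraries above all ATlo libraries, at levels of 0.10 to 0.84 FPKM, and did not pass in that fit. The Rab42 value of 0.10 FPKM in ATlo replicate 3 is under the level of 3 reads. In the limma fit after TPM rescaling, Rab43 and Rab36 passed, with adjusted p-values of 0.0471 and 0.0164. The share of genes without overlap, 70.3%, covers tested genes only and was not computed for genes below the filter. Rab26 and Rab37, which act in regulated secretion, Rab4b, Rab7b, Rab39b and Rab15 had overlapping groups. The antisense row Rab26os was at 9.05 to 15.2 FPKM, far above Rab26 at 0.27 to 0.51 FPKM, and the strand setting of the counting is not given in the sources used here.

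On GRCm38, with GENCODE M21 gene models, Rab20 lies on chromosome 8 (11453518 to 11478710, minus strand), Rab17 on chromosome 1 (90958133 to 90969661, minus strand), Rab2b on chromosome 14 (52261759 to 52279545, minus strand) and Rab6b on chromosome 9 (103111787 to 103185276, plus strand). Rab1b lies on chromosome 19 (5099205 to 5107072, minus strand), Rab31 on chromosome 17 (65651729 to 65772752, minus strand), Rab35 on chromosome 5 (115631908 to 115647736, plus strand) and Rab5c on chromosome 11 (100715009 to 100738215, minus strand). These 8 genes kept their call in every alternative fit in which they were tested. The FPKM of a gene are counted over its whole annotated transcript, so no exon or isoform can be told apart.

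The proteins that load, switch and read out RABs were taken from a list of 163 genes, of which 142 were tested. In AThi 40 rose, 20 fell and 82 did not pass, or 42.3% called against 51.6% of all tested genes, with a median log2 fold change of 0.06. Without ATlo replicate 2 the regulator rises numbered 26, and those over all tested genes 1954, against 2529 in the main fit. Leaving out an AThi library leaves 1 in that group, so no count is given here. Among 8 tested genes of the prenylation and recycling class, 3 fell. Rabggta and Rabggtb, the 2 subunits of the enzyme that attaches the lipid tail to RABs, changed by -0.46 ± 0.06 and -0.32 ± 0.08 (SE). Rabggta was at 11.6 and 12 FPKM in AThi and at 16.9, 15.8 and 16.3 FPKM in ATlo. Rabggtb was at 38.8 and 42.4 FPKM in AThi and at 48.3, 54.4 and 50.2 FPKM in ATlo, so neither gene's groups overlapped. Chml, an escort protein that presents RABs to that enzyme, changed by -0.49 ± 0.15 (SE), with an adjusted p of 0.0306, and its paralog Chm by 0.14, which did not pass. The Chml levels were 1.85 and 1.77 FPKM in AThi and 2.25, 2.71 and 3.34 FPKM in ATlo. The call of Rabggtb was lost without AThi replicate 1 (adjusted p 0.0714), and that of Chml without any library but ATlo replicate 1 (0.0604 to 0.126).

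**Figure D4:**
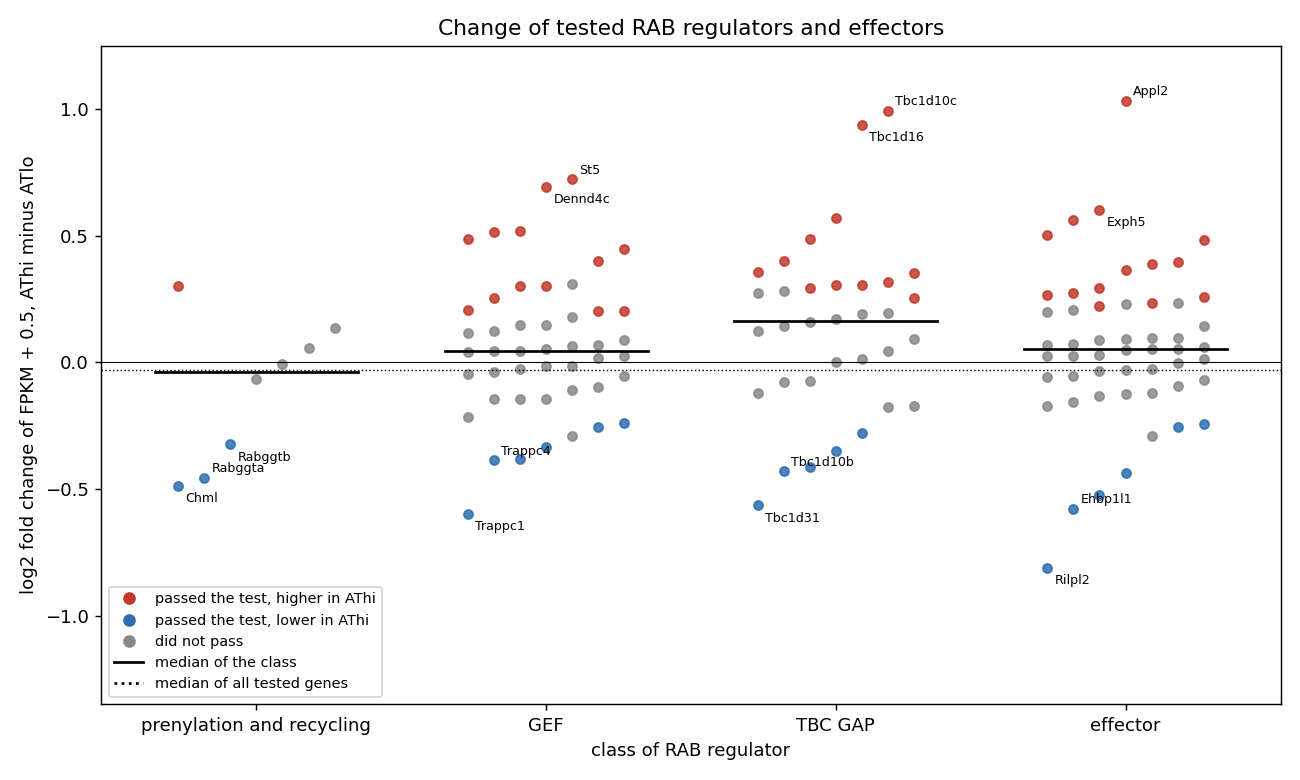
Log2 fold change of FPKM + 0.5 (AThi minus ATlo) of the 142 tested regulators and effectors of RABs, by class; red and blue points passed the limma test, grey points did not, short lines are class medians and the dotted line is the median of all tested genes. The class medians are -0.04, 0.05, 0.17 and 0.05 from left to right, and Appl2 and Tbc1d10c have the largest rises.

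Of 47 tested exchange factor genes, 13 rose and 6 fell, or 40.4% called against 51.6% of all tested genes. St5, a DENN-domain protein known as an activator of Rab13, was at 1.45 and 1.74 FPKM in AThi and at 0.68, 0.79 and 0.83 FPKM in ATlo, a fitted difference of 0.72 ± 0.14 (SE). Its mean of 1.10 FPKM passed the filter through AThi, and every ATlo value was under 1 FPKM. Dennd4c, an activator of Rab10, was at 16.0 and 16.0 FPKM in AThi and at 9.99, 10.2 and 8.98 FPKM in ATlo, a rise of 0.69 ± 0.07 (SE). The TRAPP complex activates Rab1, and those of its genes that passed went both ways. Trappc6a, at 35.3 and 38.6 FPKM in AThi and 27.8, 24.4 and 24.7 FPKM in ATlo, rose by 0.52 ± 0.08 (SE), whereas Trappc1 and Trappc4 changed by -0.60 ± 0.07 and -0.39 ± 0.06 (SE). Trappc1 was at 21.5 and 21.3 FPKM in AThi and at 34.7, 32.9 and 30.3 FPKM in ATlo, and the groups did not overlap. Trappc4 was at 15.7 and 15.02 FPKM in AThi and at 19.7, 19.97 and 21.1 FPKM in ATlo. Trappc6b also rose, by 0.30, and Trappc5 and Trappc10 also fell, at -0.25 and -0.24. Each of these further calls was lost without ATlo replicate 2 (adjusted p 0.0501 to 0.110). The other tested Trappc genes did not pass. Sbf1, a DENN-domain pseudophosphatase, was at 23.5 and 25.6 FPKM in AThi and at 31.9, 32.4 and 32.1 FPKM in ATlo, a change of -0.38 ± 0.06 (SE). Rab10 and Rab13 themselves did not pass, as given above.

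Of 34 tested TBC genes, 12 rose and 5 fell, with a median of 0.17. Tbc1d10c was at 7.51 and 10.0 FPKM in AThi and at 3.52, 4.38 and 4.49 FPKM in ATlo, a rise of 0.99 ± 0.14 (SE). Its relative Tbc1d10b went the other way, with 9.15 and 8.98 FPKM in AThi and 12.9, 12.03 and 12.2 FPKM in ATlo, a change of -0.43 ± 0.06 (SE). Both belong to a group known to act on Rab35. Tbc1d16, which acts on Rab4, was at 2.71 and 2.55 FPKM in AThi and at 0.91 to 1.26 FPKM in ATlo, a rise of 0.94 ± 0.14 (SE). Tbc1d24, at 2.77 and 2.83 FPKM in AThi and 1.60 to 1.89 FPKM in ATlo, rose by 0.57 ± 0.10 (SE). Tbc1d31, a centrosomal protein, and Tbc1d7, a subunit of the TSC complex that restrains mTORC1, changed by -0.56 ± 0.11 and -0.41 ± 0.09 (SE). Tbc1d31 was at 3.95 and 3.07 FPKM in AThi and 5.12 to 5.56 FPKM in ATlo, and Tbc1d7 at 2.45 and 2.27 FPKM against 3.16 to 3.40 FPKM.

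Of 53 tested effector genes, 14 rose and 6 fell, or 37.7% called against 51.6% of all tested genes. Appl2, which marks a class of early endosomes with Rab5, was at 56.5 and 67.3 FPKM in AThi and at 27.9, 31.6 and 30.2 FPKM in ATlo, a rise of 1.03 ± 0.09 (SE) with an adjusted p of 0.000234. Its paralog Appl1 was far lower, at 1.19 to 1.48 FPKM in all 5 libraries, and changed by 0.02. Rilpl2 was at 10.4 and 10.2 FPKM in AThi and at 18.3, 18.7 and 18.3 FPKM in ATlo, the largest fall of the list at -0.81 ± 0.06 (SE). Rilpl1, its relative and like it a reader of phosphorylated RABs, was at 3.43 and 3.41 FPKM in AThi and 1.99 to 2.26 FPKM in ATlo and rose by 0.56 ± 0.09 (SE). Exph5, an effector of Rab27, was at 2.17 and 1.96 FPKM in AThi and 1.05 to 1.49 FPKM in ATlo. It rose by 0.60 ± 0.15 (SE), a call lost without AThi replicate 1 (adjusted p 0.0878) or 2 (0.0521). Ehbp1l1, an effector of Rab8, changed by -0.58 ± 0.06 (SE), and Exoc5, a subunit of the exocyst that tethers secretory vesicles, by -0.52 ± 0.10 (SE). Ehbp1l1 was at 33.5 and 34.9 FPKM in AThi and 49.3 to 52.7 FPKM in ATlo, and Exoc5 at 4.30 and 3.61 FPKM against 5.43 to 6.44 FPKM, with no overlap in either.

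Grouping effectors by the RAB they bind, which was done after their values were seen, gave the following. Of all tested genes, 22.2% were called higher and 29.4% lower, and these small groups were not tested as sets. Of 6 tested partners of Rab27, Mlph, Exph5 and Sytl5 rose by 0.48, 0.60 and 0.27, and Sytl2, Unc13d and Rph3al changed by 0.15, 0.03 and -0.02 and did not pass. Mlph, the adaptor that links Rab27a to myosin Va, was the most abundant, at 95.1 and 98.6 FPKM in AThi and at 69.9, 71.2 and 66.3 FPKM in ATlo. Myo5a, the myosin itself, changed by -0.44, a call lost without AThi replicate 2 (adjusted p 0.0586). The Rab5 readers of early endosome fusion, Eea1, Rabep1 and Rbsn, changed by -0.13, 0.10 and 0.02, and none passed. Among readers of Rab7, Fyco1 and Osbpl1a rose by 0.22 and 0.23. Rilp, Plekhm1 and Rubcn changed by 0.20, 0.21 and -0.05 and did not pass. Of the 5 Rab11 family interacting proteins, Rab11fip1, Rab11fip2 and Rab11fip5 rose by 0.29, 0.26 and 0.36, and Rab11fip3 and Rab11fip4 changed by 0.05 and 0.06. Dennd1b, an activator of Rab35, rose by 0.49. Dennd1a, another, had a difference of 0.40 and a mean of 1.04 FPKM that passed the filter through AThi, with every ATlo value under 1 FPKM. Of the rises in this grouping, those of Mlph and Dennd1b held in every alternative that tested them, and each of the others was lost on leaving out at least 1 library (adjusted p 0.0516 to 0.178).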

How the data were processed

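Per the labels' protocols, RNA of sorted cells was column-purified and sequenced from stranded mRNA libraries. Per the submitters' processing notes, the tools were STAR, featureCounts, bcl2fastq and DESeq2 and the builds GRCm38 and mm10, without versions. The authors deposited 1 table of FPKM, rounded to 2 decimals; its annotation release, strand setting, handling of multi-mapped reads and FPKM formula: not given in the sources used here. Groups come from the sample titles. Depth was inferred from single-exon genes of up to 200 bases, whose length-multiplied values step by whole reads (tolerance 0.1 of a step, 100% of 313 to 407 values per library). Genes averaging 1 FPKM or more entered a trended limma fit (3.58.1, R 4.3.3) on log2(FPKM + 0.5), with group as the single term, two-sided, Benjamini-Hochberg over 11397 genes, threshold 0.05; 3 residual degrees of freedom. The pseudocount understates changes of low genes. The fit was tested on simulated data. Shares were compared by exact permutation (SciPy 1.17.1). Library values were given for RABs past the threshold with an absolute log2 fold change of at least 0.58, for the 3 largest passing changes in each direction of each class, for the most abundant RAB of each class, for paralogs, and, among regulators, for members of the 3 largest passing changes in each direction. RABs, classes and lists were chosen with earlier results of these data known. Alternatives changed the pseudocount, filter, scaling, moderation, replicate block and libraries. Gene models are GENCODE M21. A result for an item withheld from this text is not reported here.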

Additional observations from a re-analysis of the deposited data

How the results depend on the processing

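Of the 15 RAB calls, 4 of 8 rises (Rab17, Rab20, Rab2b and Rab6b) and 4 of 7 falls (Rab1b, Rab31, Rab35 and Rab5c) held in every alternative that tested them, and no called RAB changed sign. With 1 library left out in turn, RAB rises numbered 4 to 9 and falls 4 to 7, and regulator rises 22 to 31 and falls 14 to 19. The medians then ranged from -0.040 to 0.049 over all RABs, -0.13 to 0.12 for ER-Golgi, -0.095 to -0.0026 for exocytic, -0.060 to -0.011 for early endosomal, -0.11 to 0.11 for recycling, -0.011 to 0.040 for late endosomal and lysosomal and -0.069 to 0.0089 for other RABs. A minimum mean of 5 FPKM, which tests fewer genes, left 3 RABs, 25 regulators and 1683 of all genes higher, with medians of -0.043 for late and 0.021 for other RABs. The leave-one-out medians also cover slightly different genes. Without ATlo replicate 3, 43 RABs were tested, and without ATlo replicate 1 or 2 Rab3b was below the filter. The next 2 settings test more RABs than the 42 of the main fit, so their medians cover a different set of genes. With no filter, 56 RABs were tested, and the medians were 0.027 over all RABs, 0.16 for ER-Golgi, 0.0079 for exocytic, 0.021 for late and 0.079 for other RABs. Rescaled to TPM, with 48 RABs tested, they were 0.027, 0.23, 0.0047, 0.025 and 0.057 in the same order, with 0.00064 for early RABs. Median-of-ratios scaling gave -0.00076 for early, 0.019 for late and -0.0039 for other RABs. The replicate number served as a block in a paired fit, which gave 7 RABs higher and 6 lower, medians of -0.038 for late and -0.069 for other RABs, and no call for Rab27a (adjusted p 0.0655) or Rab6a (0.109). Replicates 1 and 2 of both groups also share the leading part of a code in the sample titles, whose meaning no label gives. The deviations of these 2 pairs from their group means correlated at 0.20 and 0.30 across genes. With 2 AThi libraries these deviations are mirror images, so the crossed pairs gave -0.20 and -0.30 by construction. The 2 values are therefore not independent of each other. ATlo replicate 3 has no partner, so it does not inform the fold changes of the paired fit. A gene's fold change there equals that without ATlo replicate 3, such as -0.184 for Rab6a and 0.200 for Rab27a. These 2 fits are therefore not separate checks of a fold change. Uncalled RABs near 0 changed sign. TPM gave 0.029 for Rab2a, 0.00064 for Rab5a, 0.018 for Rab24 and 0.025 for Rab38. Median-of-ratios scaling gave 0.028 for Rab2a, 0.017 for Rab24 and 0.021 for Rab38. The paired fit gave 0.044 for Rab18, -0.0029 for Rab19, 0.0037 for Rab2a and 0.0059 for Rab14. Leaving out 1 library gave ranges of -0.15 to 0.072 for Rab18, -0.0029 to 0.38 for Rab19, -0.13 to 0.12 for Rab2a, -0.045 to 0.14 for Rab8b, -0.10 to 0.064 for Rab24, -0.087 to 0.10 for Rab38, -0.20 to 0.011 for Rab11a, -0.034 to 0.14 for Rab11b, -0.19 to 0.085 for Rab14, -0.17 to 0.030 for Rab9 and -0.069 to 0.0089 for Rab28. The cause of these shifts was not tested. Of the 17 untested RABs, 9 exceeded the level of 3 reads in all 5 libraries, so the filter and not the depth kept these out.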
